A study of Mus musculus with 44 samples.

Results

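The fragments described here come from leucine (Leu) and serine (Ser) transfer RNAs in mouse hypothalamus. They are the rows of the deposited table of tRNA fragments (tRFs) whose tRNA list names only Leu or only Ser tRNAs and whose counts, summed over the 44 libraries, reach 220. They were chosen by their total counts, so their abundance is a description and not a test. The rule found 97 fragments, 73 of Leu and 24 of Ser, among 17051 tRFs in the table, of which 761 reach the same total. They held 237523 of 4569025 tRF counts (5.20%), and 89.8% of the counts of all 2687 rows that name only Leu or only Ser. The fragments just inside the minimum were tRF-22-8RQFR9OM3 with 232 counts and tRF-35-J29154SX1HK24O with 225. Those just outside were tRF-16-3VLIE1B with 217 and tRF-16-ZVEH93E with 216.

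The libraries hold small RNA from the hypothalamus of C57Bl/6J mice. Mice of 2 groups ate a high fat diet for 11 weeks until obese and were then injected into a vein, on each of 3 days in a row, with 3.3 mg/kg of an oligonucleotide protected by locked nucleic acids. AM132 is a 16-mer against miR-132 (16 libraries), and AM608 is a 15-mer against the primate miR-608, meant as a control without a predicted target in mice (16 libraries). These mice were killed 7 days after treatment. RCD mice were lean, age matched, kept on regular chow and had no injection stated (12 libraries), so diet and injection cannot be told apart in a comparison with RCD. The labels give a batch: AM132 and AM608 have 4 libraries each in batches 1 and 3 and 8 each in batch 2, while RCD has 4 in batch 2 and 8 in batch 4. Age, sex and whether each library is a separate animal are not given in the sources used here, so p-values measure the spread between these samples.

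Transfer RNAs carry amino acids to the ribosome, and cleavage of mature tRNAs leaves stable pieces: 5' and 3' fragments that keep an end of the tRNA, longer pieces cut at the anticodon loop, and internal fragments that keep neither end. The tRNAs of leucine and serine belong to class II, in which the short variable loop between the anticodon stem and the T stem is extended into a long arm that forms a stem of its own. In serine tRNA this arm is a main contact of seryl-tRNA synthetase. In the RefSeq genes of GRCm38.p6 the median tRNA gene length was 82 nt for Leu and Ser and 72 nt for the others, and RefSeq lists 3 mouse genes for LeuTAG, 4 for LeuCAA, 5 for LeuAAG and 8 for SerGCT.

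The sequences that carry most of the counts show where the cuts fell. The leading internal Leu fragments, and a LeuTAA and a SerGCT fragment that lie in the same place, are given 5' to 3' in DNA letters. Capitals mark the 7 bases shared by most of them at the 3' end.
tRF-17-I958M8N: atttcgatggCGTGGGT
tRF-18-3L90Q4DZ: ccgtatggaggCGTGGGT
tRF-17-W96KM8N: tcttcggaggCGTGGGT
tRF-17-W9RKM8N: tcttcgggggCGTGGGT
tRF-21-9DH48V7KE: tggacatatgtccgCGTGGGT
tRF-16-NY2V7KE: ctttgcacgCGTGGGT
The first is from LeuTAG, tRF-18-3L90Q4DZ is from LeuCAA, the next 2 are from LeuAAG or LeuTAG entries, and the last 2 from LeuTAA and SerGCT. All 6 end at position 63, 64 or 65 of the tRNA. tRF-21-9DH48V7KE starts at position 44 and the others at 47 or 48. They hold at least the 3' part of the long arm and the 5' strand of the T stem, and they stop at the first base of the T loop. tRF-17-W96KM8N and tRF-17-W9RKM8N differ by A8G, counted from 1 at the 5' end with the base of tRF-17-W96KM8N first. The longer internal fragments, and an internal Ser fragment that differed between batches, are shown because several results below turn on them.
tRF-35-9EYK46SQYU9H93: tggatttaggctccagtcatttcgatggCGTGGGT
tRF-35-9EYK46S9Y81H93: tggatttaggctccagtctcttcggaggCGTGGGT
tRF-22-UMJYX9X5M: taatccattgtgctctgcacgc
Both fragments of 35 nt start at position 29 and hold the anticodon TAG at positions 35 to 37. They share their first 18 bases and then run on into tRF-17-I958M8N and tRF-17-W96KM8N respectively, each of which forms the last 17 bases of its longer partner. tRF-22-UMJYX9X5M covers positions 36 to 57 of SerGCT and has none of the 7 capital bases. The fragments at the ends of the tRNAs have capitals for GGCCGAG, in the D stem and loop, or for the CCA that is added after transcription.
tRF-16-RPM830D: ggtagcgtGGCCGAGc
tRF-18-S5R83004: gtcacggtGGCCGAGtgg
tRF-18-HR0VX6D2: atcccaccgctgccaCCA
tRF-22-WB8689SV2: tcgaatcccatcctcgtcgCCA
tRF-16-RPM830D is the leading 5' fragment of Leu and tRF-18-S5R83004 a 5' fragment of SerCGA, and the last 2 are 3' fragments of LeuAAG or LeuTAG and of SerGCT. The table's positions in the genome are not printed, because none of the 50 tRNA entries listed for these fragments stood at a RefSeq GRCm38.p6 tRNA gene and 5 lay beyond the last gene of the mouse chromosome of that number. The reference behind the table is not given in the sources used here, so anticodons and positions within the tRNA are those of the table.

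Leu and Ser tRNAs both carry the long arm, but most Leu counts lay in fragments at that arm and most Ser counts did not. Of the 97 fragments, 54 were short internal pieces that start at positions 44 to 51 and end by position 67, here called arm fragments (51 Leu, 3 Ser). They held 81.6% of all 237523 counts and 87.0% of the Leu counts. Another 6 internal fragments ran from the anticodon stem or loop into the arm (5 Leu, 1 Ser). Ser counts lay at the ends: 45.4% in 10 fragments of the 5' end and 41.97% in 9 of the 3' end, against 12.7% in 5 internal fragments. Leu counts lay mostly in internal fragments, with 92.8% in 64 of these, 4.43% in 3 fragments of the 5' end and 2.62% in 5 of the 3' end. A longer 5' piece cut in the anticodon loop, tRF-34-RPM830MMUKLYIE of LeuAAG or LeuTAG, had 361 counts.

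**Figure D1:**
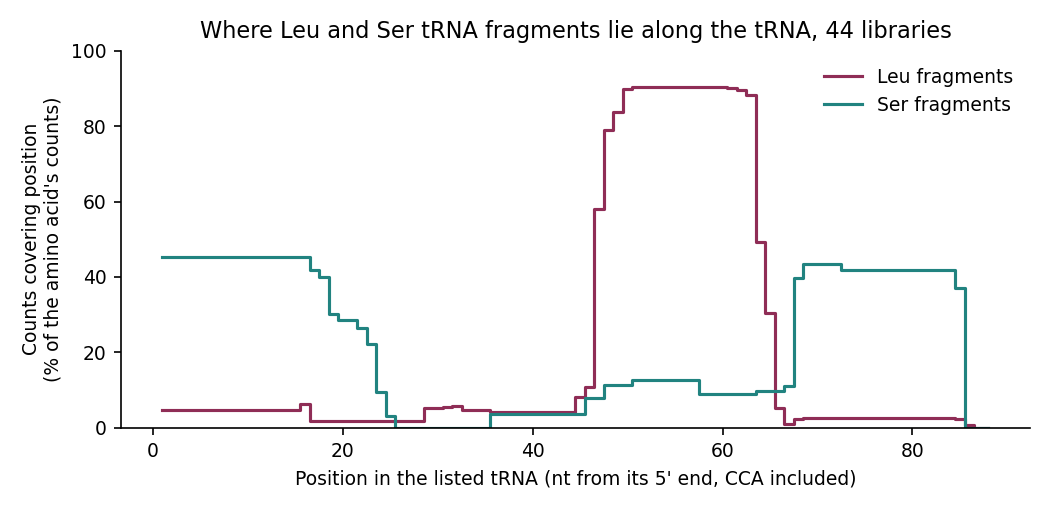
Percent of the counts of the 73 Leu and 24 Ser fragments that cover each position of the listed tRNA (x axis, nt from the 5' end), summed over 44 libraries. Leu coverage peaks at 90.4% at position 51 and stays at or above 50% from 47 to 63, whereas Ser coverage is highest at the 5' end (45.4%) and again near the 3' end.

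Most Leu arm fragments, 48 of 51, fell into 4 families of overlapping sequence. The LeuTAG family, led by tRF-17-I958M8N, had 13 fragments and 40.5% of the arm counts. The LeuCAA family, led by tRF-18-3L90Q4DZ, had 11 and 30.63%. The families led by tRF-17-W96KM8N and tRF-17-W9RKM8N had 11 and 13 fragments with 19.7% and 7.76%. Members of a family share their source and their sequence, so they are not independent of each other.

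The starts and ends of the arm fragments were concentrated on few bases. In the LeuTAG family 81.6% of counts started at position 47, and 65.8% ended at 63. In the LeuCAA family 53.2% started at 48 and 82.5% ended at 65. Over all 54 arm fragments, 67.01% of counts were in 18 fragments that end in GGGT and 25.8% in 18 that end 1 base later, in GGGTT. Fragments that ended in GGGTTC held 2.81%.

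These fragments differed in form from the other 664 tRFs that reach the same total. Their median length was 18 nt against 31 nt, and 76 of 97 (78.4%) were at most 20 nt long against 17.3% of the others. The motif CGTGGGT, searched on the fragment strand only, stood in 49 of 97 (50.5%) and in 1 of the other 664 (0.15%). GGCCGAG stood in 15 of 97 and in none of the others. GTTCGA, from the T loop, stood in 1 of 97 (1.03%) against 13.0% of the others, and a CCA end in 11.3% against 12.3%. A single tRNA entry was listed for 38 of 97 (39.2%) against 7.38% of the others.

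All 44 libraries held neuronal miRNA markers (miR-124-3p, miR-128-3p, miR-7a-5p and miR-9-5p, together 181710 to 343470 CPM in the miRNA table; CPM are counts scaled to a common library total). The sum rested mainly on miR-128-3p and miR-9-5p, with medians of 123350 and 122600 CPM, while miR-124-3p had 2354 to 8820 CPM. miR-7a-5p was highest in AM608 5, at 156280 CPM. Library totals ran from 38619 to 221358 tRF counts and from 3020192 to 5997234 miRNA counts. In 3 libraries of batch 2 miRNAs of other tissue stood out: AM132 6 had 13206 CPM and AM608 5 had 4159 CPM of the 2 epithelial markers, and AM608 5 had 15726 CPM of the 2 pituitary markers, of which AM132 5 had 1284 CPM. Results with and without AM132 5, AM132 6 and AM608 5 are given where they differ. Of the 97 fragments, 88 had counts in all 44 libraries, and none in fewer than 36.

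The share of tRF counts taken by these fragments varied widely among libraries of 1 group. Leu fragments held 0.986% to 12.0% of a library's tRF counts (median 5.33%), and Ser fragments 0.193% to 0.846% (median 0.364%). In batch 2 the Leu share was 6.92% ± 2.85 (SD, n = 8) in AM132, 7.23% ± 2.30 (n = 8) in AM608 and 6.69% ± 2.92 (n = 4) in RCD, so the 3 groups overlapped. In batch 3 it was 2.65% ± 1.20 in AM132 and 2.62% ± 0.357 in AM608 (n = 4 each), and in batch 1 it was 5.09% ± 3.33 and 3.58% ± 1.25. RCD libraries of batch 4 held 6.86% ± 1.83 Leu and 0.558% ± 0.179 Ser (n = 8), against 0.385% ± 0.130 Ser in RCD libraries of batch 2 (n = 4). Lys and Glu fragments held 45.2% and 30.59% of all tRF counts, so these shares move with those fragments too. In tissue samples, fewer cells of a type and less RNA per cell cannot be told apart.

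**Figure D2:**
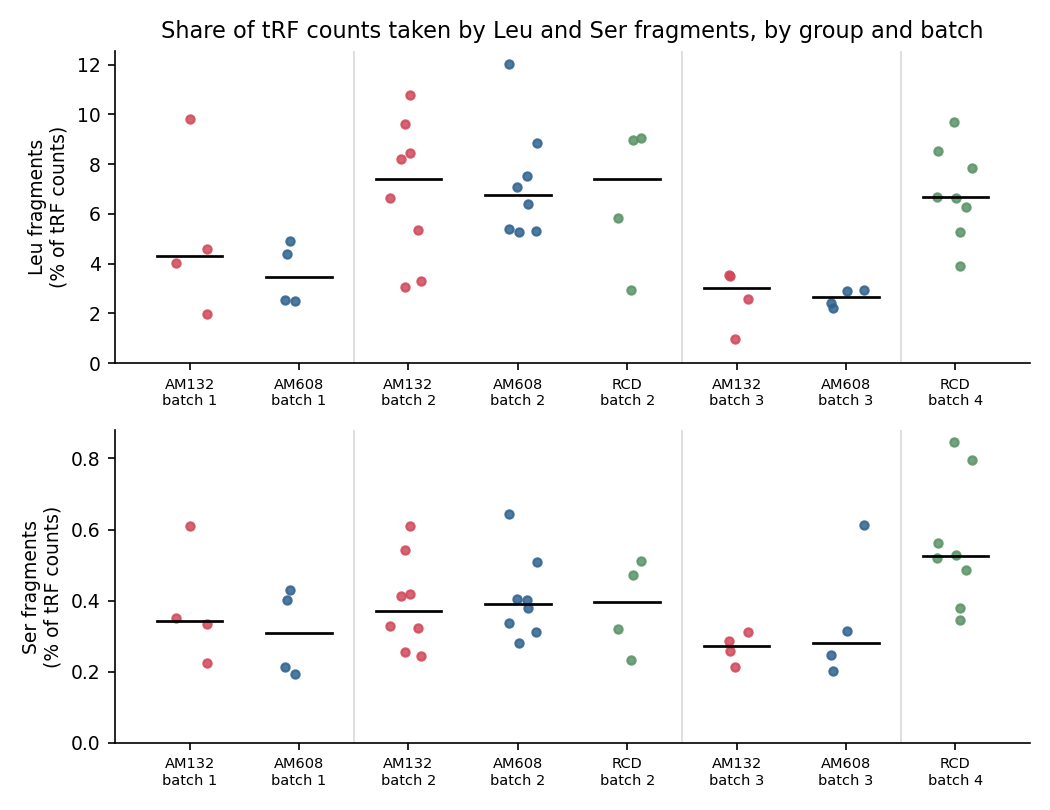
Percent of each library's tRF counts in the 73 Leu (top) and 24 Ser fragments (bottom), 1 point per library, by group and batch; black lines are medians. Leu shares in batch 3 (0.986% to 3.56%) lie low in both injected groups, and the groups overlap within each batch.

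AM132 against AM608 is the main contrast of the study, since the 2 groups differ in the sequence of the oligonucleotide. No Leu or Ser fragment passed the test, and the leading Leu fragments overlapped between the 2 groups. tRF-17-I958M8N, the most abundant, had 3205, 9445 and 17523 CPM (lowest, median and highest of 16 libraries) in AM132 and 5443, 10800 and 17956 CPM in AM608. tRF-18-3L90Q4DZ of LeuCAA had 1507, 5800 and 8803 CPM in AM132 and 3654, 5760 and 9121 CPM in AM608. The groups overlapped over nearly their whole range in both, and the log2 fold changes with batch in the fit were -0.04 ± 0.16 (SE) and 0.02 ± 0.19. Both missed the threshold, with adjusted p of 0.978 and 0.988 by edgeR's quasi-likelihood test with Benjamini-Hochberg adjustment.

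Of the 97 fragments, 66 passed the filter on low counts here (55 Leu, 11 Ser). The test called 0 of them, and 0% of all 494 tRFs tested, at an adjusted p of 0.05. DESeq2 also called 0. At an unadjusted p of 0.05 edgeR passed 3 of the 66, beside 6.68% of all 494. On simulated counts for this comparison, with 200 of 494 tRFs changed, the test recovered 80% of changes of 1 on the log2 scale. The 80% does not measure recovery where only a few tRFs change, which was not tested. The median log2 fold change was 0.06 over the 55 Leu fragments and -0.11 over the 11 Ser fragments, against 0.01 over all tRFs tested. Positive Leu values numbered 37 of 55 with this scaling, 31 with DESeq2's size factors and 22 with scaling over the miRNA and tRF tables together.

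The 5 fragments with the smallest p came from the D arm, the long arm and the 3' end. tRF-20-9MUKL6O9 of LeuCAA, which covers positions 16 to 35, had 77.4, 267 and 418 CPM in AM132 and 62.8, 162 and 303 CPM in AM608. Its log2 fold change was 0.68 ± 0.27 (SE; adjusted p = 0.642, edgeR), with 11 of 16 AM132 libraries above the mean log2 CPM of AM608 in their own batch. tRF-17-MMUKLYL of LeuAAG or LeuTAG, from positions 16 to 32, was at 0.44 ± 0.21, but at -0.18 in batch 1 alone. The arm fragments tRF-20-8WI26WRN and tRF-19-8NWE6WIZ were at -0.42 ± 0.19 and -0.23 ± 0.12. The Ser 3' fragment tRF-22-WB8689SV2 was at 0.35 ± 0.18, and at -0.034 in batch 3 alone. All 5 groups of values overlapped between AM132 and AM608, and all 5 had the adjusted p of 0.642.

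Among the other leading Ser fragments, tRF-18-H7PU4HD2 (3' end, SerAGA or SerTGA) was at -0.12 ± 0.12, tRF-23-S3M8309NS (5' end) at 0.00 ± 0.22 and tRF-18-S3M83004 (5' end) at -0.23 ± 0.18 on the log2 scale, AM132 over AM608. In AM608 14 of batch 3, Ser fragments of the 5' end held 0.447% of tRF counts, against 0.0931% to 0.111% in the remaining AM608 libraries of that batch. Its part in the values of the Ser 5' fragments was not tested. The leading LeuCAG fragment, tRF-17-MMUKLYK, was at 0.37 ± 0.29, and tRF-18-07QSNHD2 of SerTGA at 0.01 ± 0.16. The leading LeuTAA fragment tRF-21-9DH48V7KE, the leading SerCGA fragment tRF-18-RN8RPFDZ and the longer 5' piece tRF-34-RPM830MMUKLYIE did not pass the filter here.

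**Figure D3:**
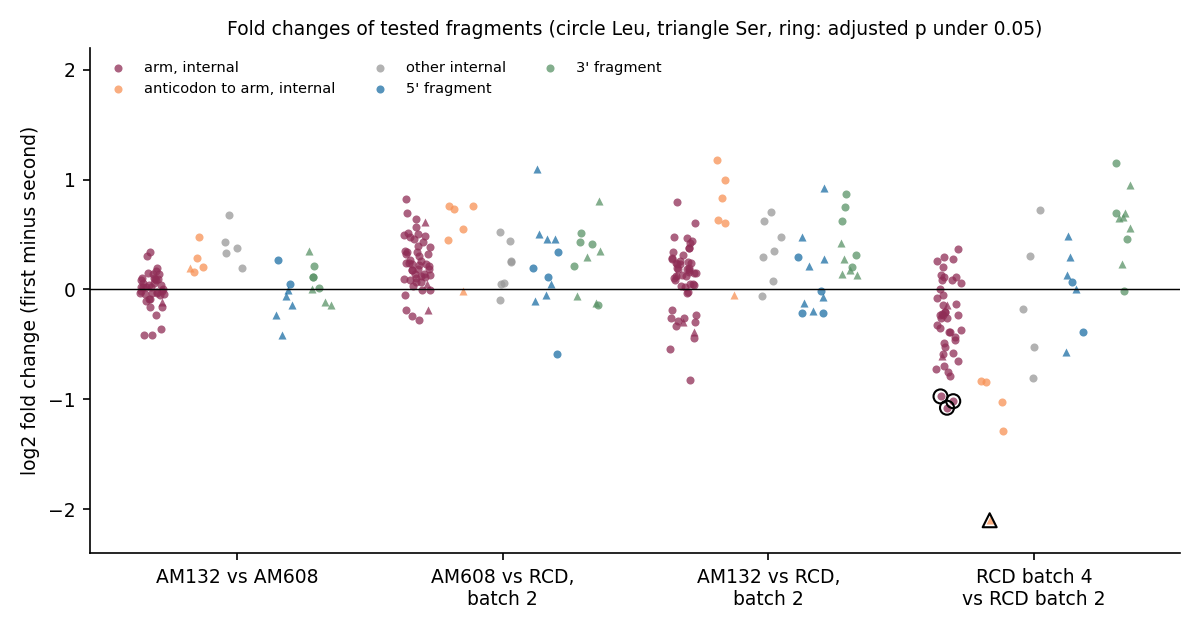
Log2 fold changes (y axis) of the Leu (circles) and Ser fragments (triangles) that passed the filter in 4 comparisons, by place in the tRNA; rings mark adjusted p under 0.05. Values for AM132 against AM608 lie between -0.42 and 0.68 with no ring, and the 4 rings are all in RCD batch 4 against batch 2, below 0.

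Within single batches the contrast gave no call either, in 62, 62 and 64 fragments tested in batches 1, 2 and 3. The median over the fragments was 0.25, -0.07 and -0.04. At an unadjusted p under 0.05 the test passed 1, 0 and 7 of them, beside 3.19%, 4.11% and 11% of all tRFs, and all 3 fits called 0% of all tRFs tested (edgeR).

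Whether the effect of AM132 differed between batches was tested with group by batch terms. No fragment passed (0 of 95 tested, beside 0.398% of all 754 tRFs), and 4 had an unadjusted p under 0.05, beside 5.97% of all tRFs. All 4 were Leu fragments of 33 to 36 nt that run from the anticodon stem into the arm. For tRF-35-9EYK46S9Y81H93 the adjusted p was 0.137 (edgeR). In batch 3 it had 676, 415, 878 and 104 CPM in AM132 and 74.4, 101, 112 and 192 CPM in AM608. In batch 1 the AM132 libraries had 139, 167, 262 and 110 CPM and the AM608 libraries 538, 446, 546 and 150 CPM. Thus 3 of 4 AM132 libraries lay above every AM608 library in batch 3, whereas 3 of 4 AM608 libraries lay above every AM132 library in batch 1. The log2 fold changes were -1.31 ± 0.48 (SE) in batch 1, 0.12 ± 0.43 in batch 2 and 2.11 ± 0.55 in batch 3, none of them called.

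Its LeuTAG partner tRF-35-9EYK46SQYU9H93 had the same order, at -0.81, 0.20 and 1.71 on the log2 scale. In batch 3 its levels were 1294, 793, 1351 and 303 CPM in AM132 and 203, 319, 300 and 323 CPM in AM608. Set against the 17 nt fragment that forms its 3' end, it reached 9.46% to 19.9% of the counts of tRF-17-I958M8N in AM132 of batch 3 and 2.99% to 5.39% in AM608. In batch 1 the same percent was 3.64 to 7.54 in AM132 and 3.55 to 20.1 in AM608. The arm share of Leu counts in batch 3 was 78.4% to 83.0% in AM132 and 88.2% to 89.7% in AM608, which did not overlap. In batches 1 and 2 the groups overlapped. The Leu counts include these longer fragments, so a higher level of them lowers the arm share, and the 2 measures are not independent.

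**Figure D4:**
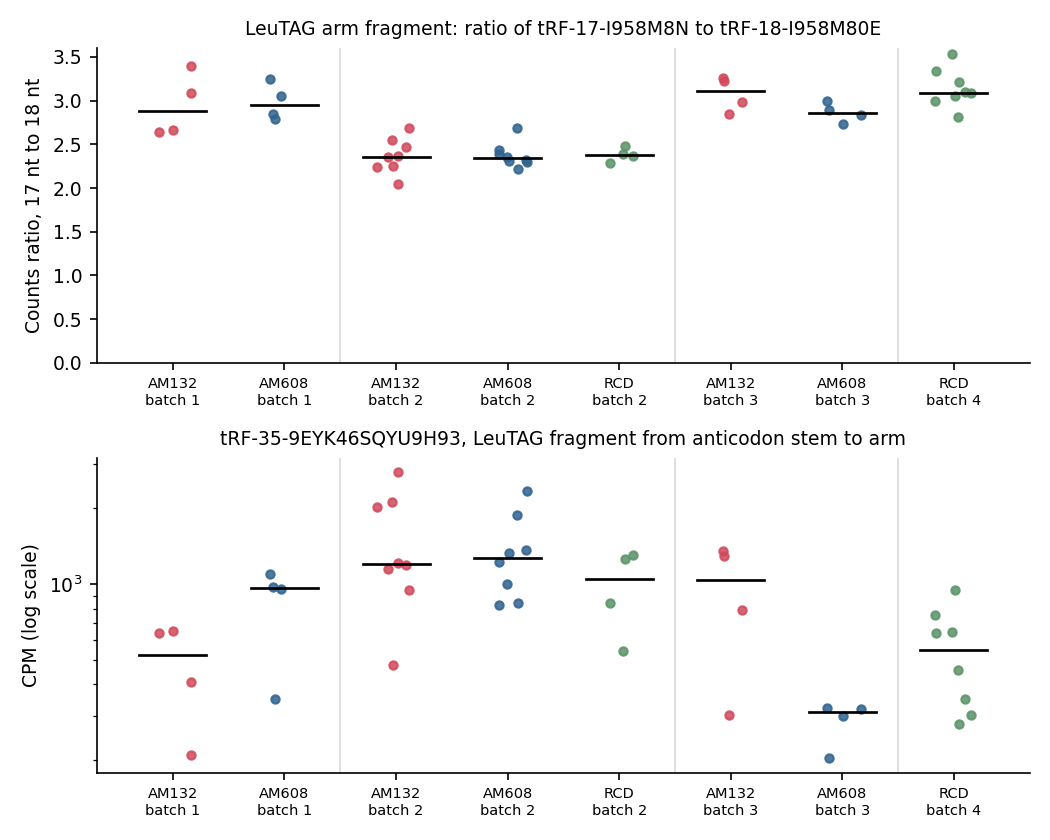
Top: ratio of the counts of tRF-17-I958M8N to those of tRF-18-I958M80E, which is 1 base longer at the 3' end, in each library. Bottom: level of tRF-35-9EYK46SQYU9H93 (CPM, log axis). Black lines are medians; the ratio is 2.04 to 2.69 in all 3 groups of batch 2, and the lower panel shows AM132 above AM608 in 3 of 4 libraries of batch 3.

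AM608 and AM132 were each compared with lean RCD mice within batch 2, the only batch that holds all 3 groups. Both comparisons use the same 4 RCD libraries, so their values are given side by side and are not independent. No Leu or Ser fragment passed in either. Of 85 fragments tested (69 Leu, 16 Ser), edgeR called 0 for AM608 against RCD, beside 0% of 575 tRFs, and passed 3 at an unadjusted p of 0.05, beside 4.87%. It called 0 for AM132 against RCD, beside 0% of 575, with 2 unadjusted, beside 3.65%. DESeq2 called 0 of the fragments in both. For these comparisons, 200 of 575 tRFs were changed in simulated counts. Of the changes of 1 on the log2 scale the test recovered 32% and 28%. Recovery where only a few tRFs change was not tested here either.

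The Leu fragments from anticodon stem to arm had the highest medians of the Leu classes, 0.73 for AM608 and 0.83 for AM132 over 5 fragments, none called. tRF-35-9EYK46SQYU9H93 had 1257, 1310, 541 and 842 CPM in RCD, 828, 1273 and 2338 CPM (lowest, median, highest of 8) in AM608 and 477, 1204 and 2793 CPM in AM132, so the 3 groups overlapped. Over all Leu fragments the median was 0.24 for AM608 and 0.20 for AM132, against 0.09 and 0.06 over all tRFs tested. These Leu values depended on single RCD libraries. RCD 11 had a Leu share of 2.93% against 5.83% to 9.04% in the other 3 RCD libraries of batch 2. Without it the Leu medians were 0.00 and -0.09, with 35 and 27 of 70 fragments above 0. Without RCD 9, RCD 10 or RCD 12, the fragments above 0 were 69 of 71, 65 of 71 and 56 of 70 for AM608. For AM132 they were 61 of 71, 57 of 71 and 51 of 70.

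Among single fragments, the Ser 3' fragment tRF-17-H7PU4HJ had the smallest p for AM608 against RCD. It had 40.6, 54.6, 76.2 and 71.8 CPM in RCD, and 8 of 8 AM608 libraries lay above the RCD mean of log2 CPM. Its log2 fold change was 0.81 ± 0.29 (SE; adjusted p = 0.839, edgeR), and AM608 overlapped RCD. Counts were low, 5 to 12 in AM608 and 3, 5, 10 and 11 in RCD. The filter let this fragment in through AM608 libraries alone, so its rank partly reflects the filter. The Ser 5' fragment tRF-22-S3M8309NF was at 1.09 ± 0.45 for AM608 and 0.93 ± 0.45 for AM132. The next were tRF-19-W9RKM82Q, the leading fragment listed for LeuAAG alone, at 0.82 ± 0.41, the arm fragment tRF-19-I958M825 at 0.70 ± 0.30 and the Ser 5' fragment tRF-18-S3M83004 at 0.46 ± 0.23, all for AM608. For AM132 the smallest p belonged to tRF-17-863IP52, a Leu 3' fragment that passed the filter through injected libraries alone, at 0.87 ± 0.39. It was followed by tRF-33-9EYK46S9Y81H04 at 1.17 ± 0.55, tRF-36-9EYK46S9Y81H93E at 1.00 ± 0.51 and tRF-17-MMUKLYL at 0.63 ± 0.33. Adjusted p was 0.839 or more for each of these for AM608 and 0.994 for AM132 (edgeR).

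Many of these fragments differed between the batches, and the Leu fragments were higher in batch 2. Among the 32 AM132 and AM608 libraries, with group in the fit, 51 of 83 fragments tested differed between batches 1, 2 and 3 (edgeR, F test of the batch terms), beside 47.5% of all 628 tRFs. Of these, 49 were higher in batch 2 than in batch 1, beside 25.3% of all tRFs, and 2 were lower, beside 22.1%. All 66 Leu fragments tested had positive log2 fold changes of batch 2 over batch 1, and 45 of them were called over the 3 batches. Positive values numbered 63 of 66 with DESeq2's size factors, 55 of 66 with scaling over both tables and 66 of 73 with no filter. The Leu median was 0.63, against -0.13 over all tRFs. With scaling over both tables the 2 medians were 0.36 and -0.38. From batch 1 to batch 3 the Leu median was -0.36, with 4 of 66 above 0. For Ser, 6 of 17 were called over the 3 batches, 4 with a positive and 2 with a negative value for batch 2 over batch 1.

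tRF-17-W96KM8N had the smallest p. It had 2958, 2342, 1806 and 1123 CPM in AM132 of batch 1 and 1831, 5310 and 7459 CPM (lowest, median, highest of 8) in AM132 of batch 2. In AM608 it had 1615, 1498, 1830 and 2164 CPM in batch 1 and 4198, 4854 and 6126 CPM in batch 2. The batches did not overlap in AM608 and overlapped in AM132. Its log2 fold change from batch 1 to batch 2 was 1.43, and to batch 3 -0.40 (adjusted p = 5.9e-08, edgeR). tRF-17-I958M8N stood at 0.82 and tRF-18-3L90Q4DZ at 0.30 in batch 2 over batch 1, both higher, with adjusted p of 1.4e-05 and 0.0488 over the 3 batches (edgeR).

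The other Leu fragments with the smallest p were tRF-16-ZSIJ7KE at 0.97, tRF-16-I958M80 at 1.01, tRF-18-I958M80E at 1.12, tRF-18-W96KM80E at 1.37, tRF-19-W96KM825 at 1.16, tRF-17-NS5J7KQ at 0.94 and tRF-16-NS5J7KE at 0.83, all arm fragments and all log2 fold changes of batch 2 over batch 1. The 5 Leu fragments from anticodon stem to arm were all called, with a median of 1.70, with tRF-36-9EYK46SQYU9H93E at 1.70 and tRF-33-9EYK46S9Y81H04 highest at 2.00. Ser tRF-22-UMJYX9X5M stood at 2.07 for batch 2 and -0.89 for batch 3, both over batch 1 (adjusted p = 1.19e-07, edgeR). It passed the filter on low counts through batch 2, where it is high, so its p is a description. The same holds for tRF-33-9EYK46S9Y81H04, tRF-36-9EYK46SQYU9H93E, tRF-36-9EYK46S9Y81H93E and tRF-19-W96KM825. The 2 called fragments with a negative value for batch 2 were the Ser 5' fragments tRF-25-S3M8309NDJ at -1.78 and tRF-24-S3M8309N0Y at -0.57. They were at 1.05 and 0.85 in batch 3. tRF-25-S3M8309NDJ passed the filter on low counts through batches 1 and 3, where it is high, so its p is a description too. Single libraries of batch 3 were high, with 93 counts of tRF-25-S3M8309NDJ in AM132 14 and 154 of tRF-24-S3M8309N0Y in AM608 14. A shorter 5' fragment of the same tRNAs, tRF-23-S3M8309NS, was at 0.95 in batch 2, so 5' fragments with the same start and lengths of 23, 24 and 25 nt had values of opposite sign.

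**Figure D5:**
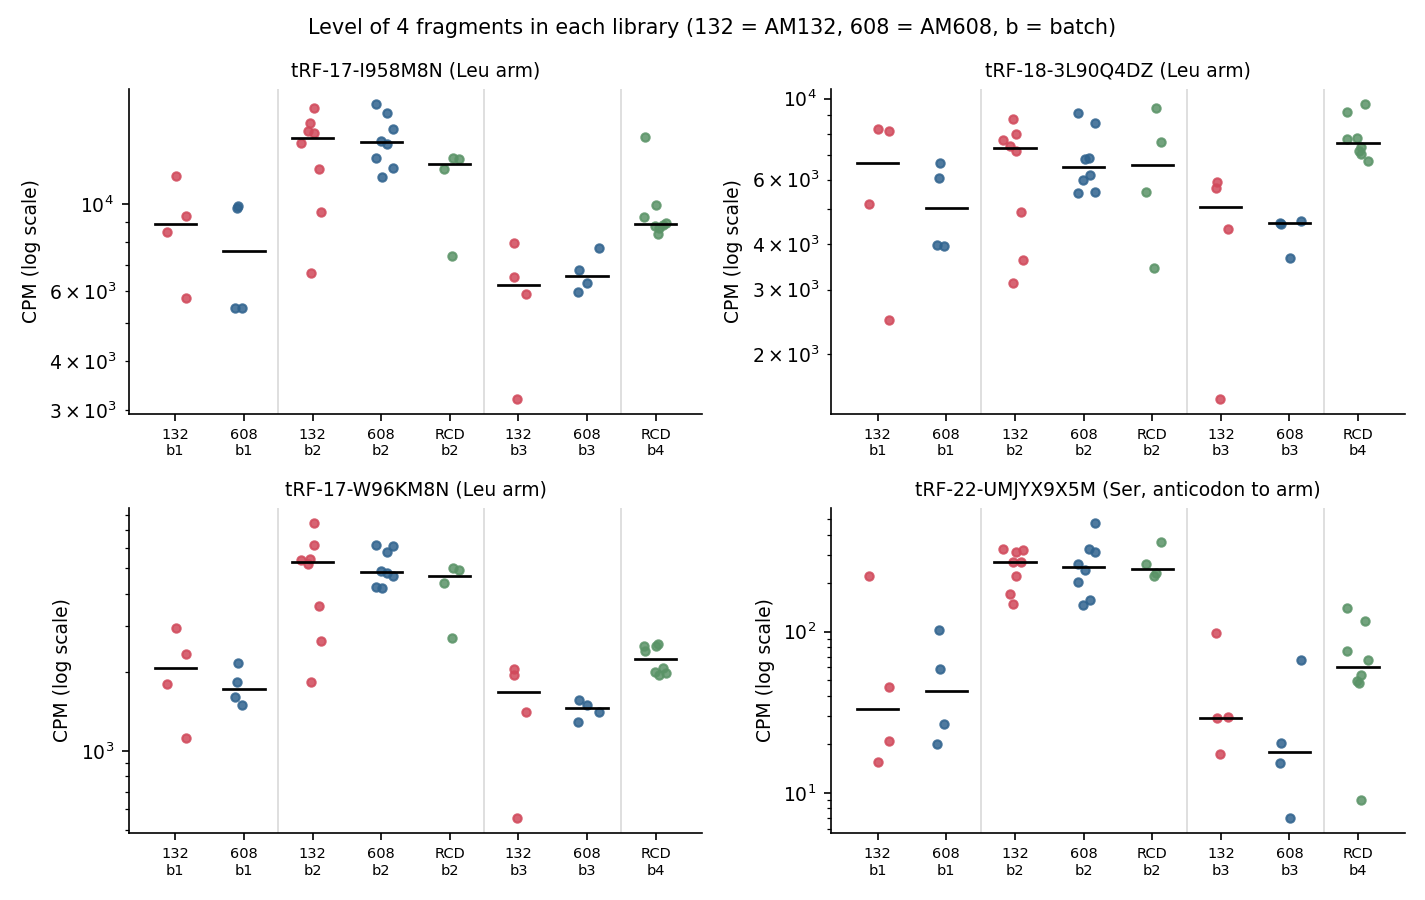
CPM (log axis) of 3 Leu arm fragments and of the Ser fragment tRF-22-UMJYX9X5M in each library by group and batch; black lines are medians. tRF-22-UMJYX9X5M lies between 147 and 472 CPM in every batch 2 library and has a median of 17.8 to 60.3 CPM in the groups of the other batches.

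Lean RCD mice were compared between batch 4 and batch 2, in libraries that the fit above did not use. In RCD, 4 of 72 fragments tested passed, all lower in batch 4, beside 9.8% of 510 tRFs called (edgeR). Of all tRFs 5.29% were called lower and 4.51% higher. At an unadjusted p under 0.05 the counts were 16 of 72, beside 25.9% of all tRFs. tRF-22-UMJYX9X5M had 230, 360, 221 and 261 CPM in batch 2 and 9.08, 60.3 and 140 CPM (lowest, median, highest of 8) in batch 4, which did not overlap. It fell by 2.10 ± 0.43 (SE) on the log2 scale (adjusted p = 0.00843, edgeR). Its counts were 17, 33, 29 and 40 in batch 2 and 1 to 11 in batch 4. The filter on low counts let it in through batch 2, where it is high, so its p is a description and not a test. tRF-17-W96KM8N had 5002, 4923, 2713 and 4407 CPM in batch 2 and 1959, 2247 and 2569 CPM in batch 4, again without overlap, and fell by 1.08 ± 0.24 (adjusted p = 0.0143, edgeR). tRF-18-W96KM80E and tRF-19-W96KM825, which extend it by 1 and 2 bases, fell by 1.02 ± 0.27 and 0.97 ± 0.28 (adjusted p = 0.0309 and 0.0428, edgeR). The number called was 14 with DESeq2, 9 with scaling over both tables, 8 with DESeq2's size factors and 1 with no filter or with at least 10 CPM. It was 8 without RCD 11, 2 without RCD 10 or RCD 12, and 4 without RCD 9, of which 2 were among those named here.

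The leading fragments of the other families did not pass between these batches. The log2 fold change of batch 4 over batch 2 was -0.39 ± 0.28 (SE) for tRF-17-I958M8N, 0.08 ± 0.31 for tRF-18-3L90Q4DZ and -1.03 ± 0.39 for tRF-35-9EYK46SQYU9H93, none called. For 3' fragments the median was 0.58 over 4 Leu fragments, 3 of them above 0, and 0.66 over 6 Ser fragments, all above 0, and tRF-18-H7PU4HD2 of Ser was at 0.70 ± 0.23 (adjusted p = 0.0728, edgeR). tRF-18-H7PU4HD2 had 676, 448, 624.8 and 562 CPM in batch 2 and 827, 1001 and 1226 CPM in batch 4, without overlap.

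Fragment by fragment, the difference of batch 2 from batch 1 in injected obese mice was set against that of batch 2 from batch 4 in lean mice, which share no library. Over the 72 Leu and Ser fragments tested in both, Pearson's r was 0.82 and Spearman's rho 0.82, a description over fragments that overlap in sequence and share libraries. Over all 500 tRFs tested in both, r was 0.27. Both differences were positive in 44 of the 72 and negative in 5, beside 116 and 137 of the 500. The 44 were 40 of 58 Leu and 4 of 14 Ser fragments, and the 5 were all Ser. Spearman's rho was 0.83 over the Leu and 0.57 over the Ser fragments. The medians of Gly, Val and His fragments of the same minimum total, from batch 1 to batch 2, were -0.17, -0.45 and -0.20.

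Some other measures moved with batch 2 as well, and some did not. The sum of the 2 choroid plexus markers, miR-204-5p and miR-34c-5p, had a median of 4653 CPM in AM132, 4698 in AM608 and 4980 in RCD of batch 2, against 1623 to 2350 CPM in the groups of the other batches. Neither marker was at 0 in any library, and the group ranges were 3522 to 5439 CPM in batch 2 and 1387 to 7605 CPM elsewhere, where 1 library, RCD 2 of batch 4, was at 7605. Neuronal markers had a median of 247840 to 255960 CPM in the groups of batch 2 and 299960 to 332850 CPM elsewhere, and muscle markers 350 to 428 CPM and 187 to 281 CPM. AM132 6 of batch 2 reached 3060 CPM of the muscle markers. The median of the 2 pituitary markers was 234 CPM in AM132 of batch 2 and 117 CPM in AM132 of batch 3. Glial medians, at 22154 to 23969 CPM in the groups of batch 2 and 21457 to 24837 CPM elsewhere, did not set batch 2 apart. Those of the myeloid and erythroid markers overlapped too. Median tRF counts per library were 81982 to 110108 in the groups of batch 2, 101538 and 121043 in batch 1, 152125 and 154065 in batch 3 and 63378 in batch 4. Their part in the shift of the Leu fragments was not tested. Without AM132 5, AM132 6 and AM608 5 the number called among the AM132 and AM608 libraries was 54.

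The exact 3' end of the LeuTAG fragment was also compared between batches. The ratio of tRF-17-I958M8N to tRF-18-I958M80E, which ends 1 base later, had a median of 2.71 over 44 libraries (2.04 to 3.53). In batch 2 it was 2.04 to 2.69 in AM132, 2.22 to 2.69 in AM608 and 2.28 to 2.48 in RCD. In batch 4 RCD it was 2.82 to 3.53, which did not overlap RCD of batch 2. In AM132 it was 2.644 to 3.398 in batch 1, which overlapped AM132 of batch 2, and 2.85 to 3.26 in batch 3, which did not. In AM608 it was 2.79 to 3.25 in batch 1 and 2.73 to 3.00 in batch 3, both above AM608 of batch 2. AM132 and AM608 overlapped in every batch. Within batch 2 the 3 groups' medians were 2.36, 2.34 and 2.38.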

How the data were processed

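Small RNA from hypothalamus was measured in 44 libraries made from 200 ng of total RNA (RIN above 8.4), per the labels' protocols. The authors deposited 2 tables of whole-number counts, of miRNAs and of tRNA fragments. FastQC is named in the submitters' processing notes, and the aligner, the counting program and the tRNA reference are not given in the sources used here. Fragments of a multicopy tRNA family cannot be assigned to 1 gene. Groups, batches and replicate numbers came from the labels.

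The members of the set and all lists were chosen with earlier results of these data known. Counts of the whole tRF table were fitted in R 4.3.3 with edgeR 4.0.16 (quasi-likelihood F test, filterByExpr with a minimum count of 10 and total of 15, TMM scaling, Benjamini-Hochberg adjustment over all tRFs tested, threshold 0.05). AM132 against AM608 had batch as a term; comparisons with RCD used the 20 libraries of batch 2 in 1 fit. Levels are CPM with TMM scaling over all 44 libraries. Library totals were 38619 to 221358 tRF counts, and the median count of a fragment in AM132 of batch 1 was 9 to 14 per library, so low fragments carry large counting error. The text names all fragments that passed (at most 10 each way), those 5 with the lowest p in every group contrast, the most abundant of each amino acid, type and anticodon, and those next to the minimum total. Fits were tested on simulated data with 200 changed tRFs, written per comparison. Alternatives were DESeq2 1.42.0, its size factors in edgeR, other filters, scaling over both tables, libraries left out, single batches and a replicate block. No pair of libraries agreed within sampling noise (smallest chi-square per degree of freedom 5.92 within a group and 2.94 over all 946 pairs). Sequences came from the deposited table. RefSeq GRCm38.p6 and GENCODE gene tables served only to check positions.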

Additional observations from a re-analysis of the deposited data

Results flagged for a closer look

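In 96 checks of 1 library against the others of its group and batch, 9 stood apart by Dixon's criterion, where chance gives about 1 in 20. In RCD of batch 2, RCD 11 had 7368 CPM of tRF-17-I958M8N against 12260 to 13110 in the other 3 libraries, and 3078 CPM of tRF-18-I958M80E against 5286 to 5491. In RCD of batch 4, RCD 8 had 14790 CPM of tRF-17-I958M8N against 8387 to 9963, and 4434 CPM of tRF-18-I958M80E against 2487 to 3270. AM608 15 had 3654 CPM of tRF-18-3L90Q4DZ where the remaining AM608 libraries of batch 3 had 4537 to 4638. The Ser fragment tRF-22-UMJYX9X5M had 220.5 CPM in AM132 3 against 15.5 to 45.6 in the rest of AM132 in batch 1, and 98.6 CPM in AM132 15 against 17.3 to 29.63 in batch 3. Arm fragments held 78.4% of the Leu counts in AM132 15, where the remaining AM132 libraries of batch 3 had 82.3% to 83.0%, and 83.2% in AM608 8, where the remaining AM608 libraries of batch 2 had 87.1% to 89.7%.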

How the results depend on the processing

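The 3 comparisons of groups called 0 fragments under every alternative run on them (AM132 against AM608, and each against RCD). For RCD batch 4 against batch 2, the 4 calls became 8 with DESeq2's size factors, 1 with no filter, 14 with DESeq2, 1 with at least 10 CPM and 9 with scaling over both tables, and leaving out each RCD library of batch 2 gave 2 to 8. The effect of AM132 by batch had 1 call with no filter, where it had 0 before. The 51 calls for batch became 18 with no filter, of which 16 were among the 51, and 38 to 54 under the other alternatives. Log2 fold changes of AM132 over AM608 changed sign under some alternative for many of the fragments named, none of them called. In batch 1 alone tRF-17-MMUKLYL was at -0.177, tRF-17-I958M8N at 0.255, tRF-23-S3M8309NS at 0.279, tRF-18-S3M83004 at 0.366, tRF-17-MMUKLYK at -0.213, tRF-18-07QSNHD2 at -0.140, tRF-35-9EYK46S9Y81H93 at -1.307 and tRF-35-9EYK46SQYU9H93 at -0.812. In batch 2 alone tRF-18-3L90Q4DZ was at -0.077 and tRF-23-S3M8309NS at 0.062, and in batch 3 alone tRF-22-WB8689SV2 was at -0.034 and tRF-18-07QSNHD2 at -0.335. tRF-18-3L90Q4DZ and tRF-18-07QSNHD2, near 0, were at -0.021 and -0.011 with DESeq2's size factors, -0.061 and -0.040 with no filter, -0.021 and -0.003 with DESeq2, and -0.078 and -0.055 with scaling over both tables. tRF-18-3L90Q4DZ was at -0.084 with the replicate block and -0.002 with no batch term. Without AM132 5, AM132 6 and AM608 5, tRF-23-S3M8309NS was at 0.044 and tRF-18-07QSNHD2 at -0.030. For RCD batch 4 against batch 2, tRF-18-3L90Q4DZ ranged from -0.169 without RCD 11, and -0.071 without RCD 12, to 0.373 without RCD 9. Where a value changed, the cause was not tested. Scaling over both tables was added for the batch comparison after the data were seen. Low counts limit the Ser fragments most, since only 11 of 24 could be tested for AM132 against AM608.

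Replicate numbers are shared by AM132 and AM608, but no label says what they pair. Same-numbered libraries correlated at -0.60 to 0.81 in their deviations from the means of group and batch, and 2 of 16 AM132 libraries correlated best with their own number. With the replicate block the calls were 0 in all 3 comparisons of groups.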

Other observations

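The 3' ends of the other Leu families differed from that of LeuTAG. The 18 nt fragment tRF-18-3L90Q4DZ of LeuCAA, which ends in GGGT, outnumbered the form that is 1 base longer by a median of 6.99 to 1 over 44 libraries (5.47 to 10.7). For tRF-17-W96KM8N the ratio to the longer form was 1.26 (0.914 to 2.02), and for tRF-17-W9RKM8N it was 1.23 (0.740 to 1.87). RCD libraries of batch 2 had 1.21 to 1.63 for tRF-17-W96KM8N and those of batch 4 had 1.10 to 1.44, so these overlapped, unlike the LeuTAG ratio.

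Some fragments that stayed under the filter for AM132 against AM608 were compared by level. tRF-21-9DH48V7KE, the LeuTAA arm fragment, had a median of 63.7 CPM in AM132, 65.7 CPM in AM608 and 75.9 CPM in RCD. The SerCGA arm fragment tRF-18-RN8RPFDZ had 81.6, 84.0 and 107 CPM, and the longer 5' piece tRF-34-RPM830MMUKLYIE had 90.01, 64.4 and 72.6 CPM in the same order. All 3 groups overlapped for each.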
